A study of Homo sapiens with 9 samples.

Results

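The long noncoding RNA CRLM1 and the 3 protein-coding genes named as its neighbours on chromosome 1, PPAP2B, PRKAA2 and USP24, were followed in HCT116 cells given a CRLM1 transgene. The genes were chosen by symbol, where CRLM1 is listed as RP4-710M16.2 (LINC01767). All 4 were found, among 31558 genes of the count table and 31268 genes of the FPKM table. HCT116 is a human colorectal cancer cell line. Cells were transfected in 3 groups of 3 biological replicates, namely CRLM1 overexpression (CRLM1-OE), the empty plasmid (Ctrl) and a plasmid with the CRLM1 sequence in antisense orientation (Anti). The cDNA was cloned into a pTSB vector, and whether these samples were stable lines made with its lentiviral form is not given in the sources used here. All 9 libraries are polyA RNA read in pairs. The promoter of the insert was not used here, and whether replicates of a group came from separate transfections is not given in the sources used here, so p-values measure only the spread between these samples.

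Long noncoding RNAs can act on genes beside the site where they are made, or away from it when they are supplied from another place. A transgene gives the RNA from the vector, while the neighbours are read from their own loci. PPAP2B, now PLPP3, is a membrane phosphatase that removes phosphate from bioactive lipids such as lysophosphatidic acid (LPA) and sphingosine 1-phosphate (S1P). PRKAA2 is the alpha 2 catalytic subunit of AMPK, the kinase that senses low cellular energy, and USP24 is a ubiquitin-specific protease that takes ubiquitin off proteins. The comparison of CRLM1-OE with Ctrl asks whether the level of these genes differed when CRLM1 RNA was abundant, and the comparison with Anti asks the same against cells given the same DNA in the other orientation.

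On GRCh38 with GENCODE annotation, LINC01767 occupies 56414918 to 56417137 of chromosome 1 on the forward strand. The paper gives CRLM1 a later start and a later end, and distances below use the GENCODE span. The annotated transcript of 590 nt has 4 exons, and it is shown because all 9 capture probes designed by the study matched it whole. A form of 633 nt also has both cloning primer sites, 631 nt apart at their outer ends, and matched 8 of the 9 probes. A form of 1568 nt has the sites 373 nt apart and matched 5. The length the study gives for CRLM1 is the distance between the primers on the first form, which is therefore taken as the cloned one. Exons are given below 5′ to 3′ on the forward strand, with the sites of the cloning primers in capitals.
LINC01767 exon 1: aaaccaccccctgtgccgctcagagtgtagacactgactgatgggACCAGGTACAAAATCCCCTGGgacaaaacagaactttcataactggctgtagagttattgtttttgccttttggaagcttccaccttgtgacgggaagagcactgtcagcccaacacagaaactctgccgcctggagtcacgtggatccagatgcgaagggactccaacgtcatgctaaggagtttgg
LINC01767 exon 2: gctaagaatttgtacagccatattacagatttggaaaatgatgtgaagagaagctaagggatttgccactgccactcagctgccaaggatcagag
LINC01767 exon 3: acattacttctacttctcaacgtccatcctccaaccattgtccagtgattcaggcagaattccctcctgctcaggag
LINC01767 exon 4: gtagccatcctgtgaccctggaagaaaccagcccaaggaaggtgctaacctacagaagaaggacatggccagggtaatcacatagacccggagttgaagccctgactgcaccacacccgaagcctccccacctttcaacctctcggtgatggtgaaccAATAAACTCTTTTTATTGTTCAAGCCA
CRLM1 F: ACCAGGTACAAAATCCCCTGG
CRLM1 R: TGGCTTGAACAATAAAAAGAGTTTATT

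The exons lie at chr1:56414918-56415150, chr1:56415248-56415342, chr1:56415533-56415609 and chr1:56415782-56415966, with lengths of 233, 95, 77 and 185 nt. The forward primer matched the first exon at RNA bases 46 to 66, and the reverse primer is the reverse complement of bases 564 to 590 at the end of the last exon. An insert cloned from this form lacks the first 45 annotated bases and has 545 nt and a GC content of 48.8%. The 9 probes, each of 59 nt, are antisense to RNA bases 46 to 576 without a gap. The protein studied with CRLM1, hnRNPK, is known to bind C-rich RNA. The paper reports binding of hnRNPK at both ends of CRLM1 and a putative C-rich site towards its far end. Its positions are counted on the 545 nt, and those here on the annotated RNA. Runs of at least 4 C were found at RNA bases 7 to 11, 60 to 63 and 531 to 534, the first of which lies before the forward primer and so outside the insert. The search was for letters only, and binding to these runs was not tested here.

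PLPP3 (PPAP2B) lies on the reverse strand at chr1:56494761-56645301, 77.6 kb beyond the end of LINC01767, and PRKAA2 lies on the forward strand at chr1:56645314-56715335, 228.2 kb beyond it. USP24 lies on the reverse strand at chr1:55066359-55215378, on the other side, and its end nearest to CRLM1 is at -1199.5 kb from it. The annotated start of PRKAA2 is 13 and 42 bp from the starts of 2 PLPP3 transcripts that run in the opposite direction. Neither has a defined coding sequence. The coding transcript of PLPP3 begins 65751 bp away, inside the gene, so the start meant for PPAP2B depends on the transcript. The tables give a value per gene, and the starts could not be separated. 2 further genes, RP11-504A18.1 and ENSG00000284686, span CRLM1 on the reverse strand. 0 of their exons meet its exons, and RP11-504A18.1 had at most 3 counts in any library.

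**Figure D1:**
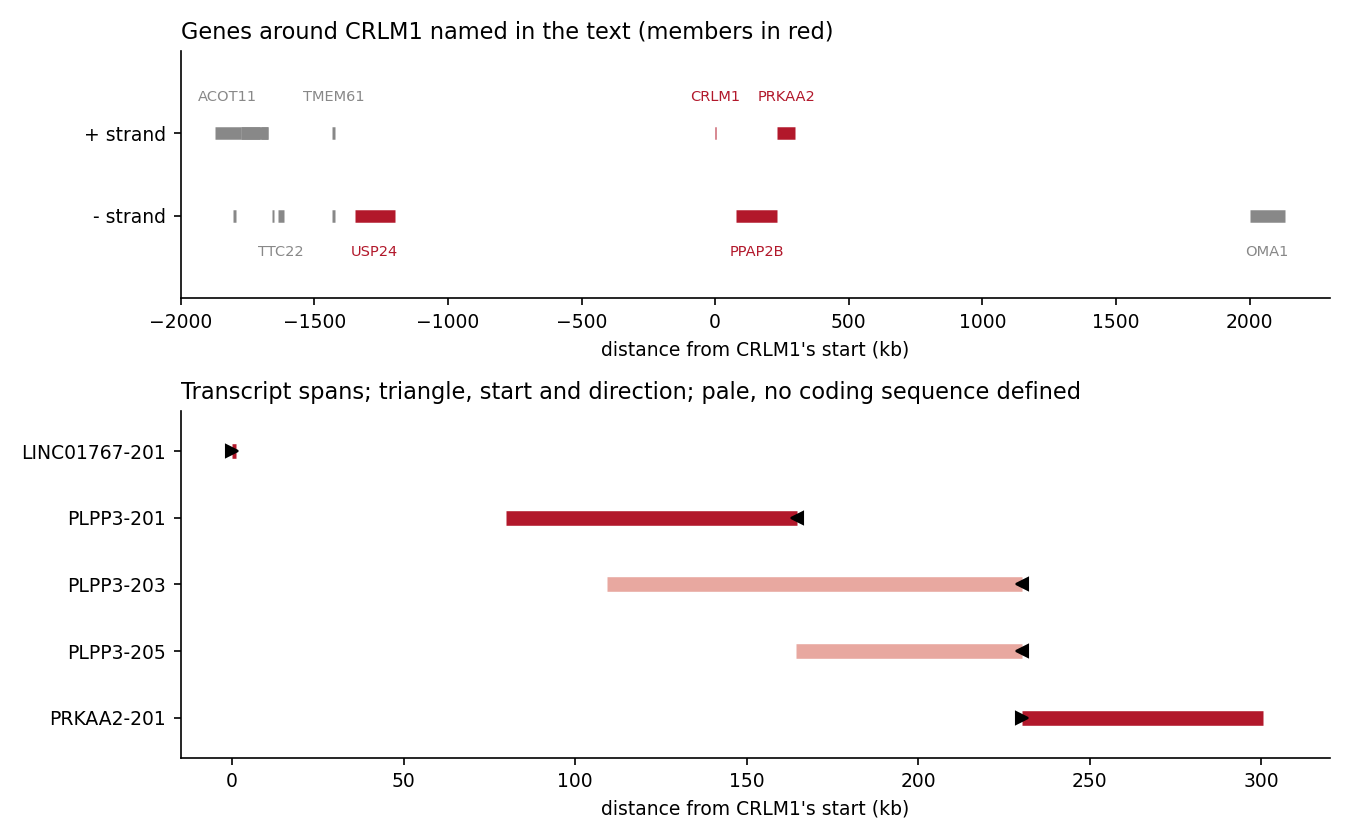
The upper panel places the genes named in the text, with the members in red, by distance from the start of CRLM1 in kb and by strand. The lower panel shows transcript spans around CRLM1, with a triangle at each start pointing in the direction of transcription, and the pale PLPP3 spans, which have no defined coding sequence, start 13 and 42 bp from PRKAA2.

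RefSeq promoter windows of 300 bases (250 before the start and 50 after it, GRCh38.p14) matched 3 of the 4 genes, and they are shown because the neighbouring PPAP2B and PRKAA2 differed in direction below. Capitals mark motifs found by a search of both strands for 4 sequences, the GC box GGGCGG, the CCAAT box, the TATA box TATAAA and the AP-1 site TGANTCA.
LINC01767 promoter: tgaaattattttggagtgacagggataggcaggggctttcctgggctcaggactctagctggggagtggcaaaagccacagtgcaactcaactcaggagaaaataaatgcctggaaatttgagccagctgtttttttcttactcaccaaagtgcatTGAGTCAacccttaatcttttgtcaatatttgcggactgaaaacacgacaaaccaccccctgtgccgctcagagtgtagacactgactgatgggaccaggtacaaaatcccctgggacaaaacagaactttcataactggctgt
PLPP3 promoter: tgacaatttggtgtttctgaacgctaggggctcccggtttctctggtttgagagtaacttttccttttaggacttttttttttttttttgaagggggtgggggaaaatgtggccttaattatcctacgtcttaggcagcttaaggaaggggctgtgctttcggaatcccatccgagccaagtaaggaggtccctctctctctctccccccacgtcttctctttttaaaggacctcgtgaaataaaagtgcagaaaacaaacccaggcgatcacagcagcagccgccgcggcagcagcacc
PRKAA2 promoter: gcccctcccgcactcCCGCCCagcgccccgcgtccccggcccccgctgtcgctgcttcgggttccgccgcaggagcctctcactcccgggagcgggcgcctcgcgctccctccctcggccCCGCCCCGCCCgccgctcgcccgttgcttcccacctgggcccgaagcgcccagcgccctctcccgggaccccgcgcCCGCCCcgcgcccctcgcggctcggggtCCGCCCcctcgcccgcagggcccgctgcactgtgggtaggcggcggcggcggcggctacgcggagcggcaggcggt

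The windows are chr1:56414713-56415012 on the forward strand for LINC01767, chr1:56579514-56579813 on the reverse strand for PLPP3 and chr1:56645064-56645363 on the forward strand for PRKAA2. The PRKAA2 window had a GC content of 82.7% and 48 CpG, where 99.2% of 35116 windows were at or below this GC content and the medians were 58.7% and 14 CpG. It held 5 GC boxes, all in the orientation CCGCCC, at -235, -130, -125, -54 and -26 from the start, of which those at -130 and -125 share a base. The PLPP3 window had 49.0% GC, 11 CpG and no match to the 4 sequences. The LINC01767 window had 46.3% GC, 3 CpG and an AP-1 match, TGAGTCA, at -94 from the RefSeq start. That start lies 45 bases inside the 590-nt transcript, from whose own start the match is at -49. Of all windows, 45% held a GC box, 34.6% a CCAAT box, 11.5% a TATA box and 7.7% an AP-1 match. A match is a description of letters and not a site shown to be used. USP24 is named only.

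Total counts per library were 33302292 to 44514692. The floor of 3 counts was 0.0674 to 0.0901 CPM (counts scaled to the library total), and floors and counts cover counting error only, since reads carry no molecular identifiers. Of the epithelial markers, 7 of 7 were detected, with a summed level of 10242 to 10319 CPM in CRLM1-OE, 12004 to 12099 CPM in Ctrl and 9955 to 10027 CPM in Anti (CPM after TMM scaling). The sum covers markers that differed in direction. KRT18 had 933 to 940, 1859 to 1876 and 1832 to 1910 CPM in CRLM1-OE, Ctrl and Anti, and CLDN4 had 741 to 746, 388 to 401 and 348 to 357 CPM. The summed level of 7 markers of other cells was 15.9 to 18.7, 9.53 to 10.3 and 9.95 to 10.98 CPM in the same order, of which the fibroblast collagen COL1A1 made up 14.86 to 18.06, 9.14 to 9.90 and 9.46 to 10.6 CPM. Counts of PTPRC, COL1A2, DCN and ALB, which mark leukocytes, fibroblasts and hepatocytes, were at most 3 in any library. The endothelial markers PECAM1 and VWF had at most 6 and 35 counts. VWF was at 0.328 to 0.798 CPM in CRLM1-OE, 0.233 to 0.354 CPM in Ctrl and 0.199 to 0.420 CPM in Anti. What part these markers have in the results below was not tested.

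CRLM1 itself separated the groups without overlap. The CRLM1-OE libraries had 923, 983 and 943 CPM (of the library total), the Anti libraries 48.7, 47.3 and 43.9 CPM, and 0 counts were found in all 3 Ctrl libraries. Against the highest Ctrl floor, CRLM1-OE was at least 11066-fold higher (SD 358.1 over 3 libraries) and Anti at least 543-fold higher (SD 28.7). With edgeR's quasi-likelihood test, CRLM1-OE was 19.5-fold above Anti (log2 fold change 4.29, SE 0.02, adjusted p = 1e-300, the lowest value written). Counting by strand is not stated in the sources used here, so that in Anti reads of an antisense insert and reads of CRLM1 cannot be told apart, and reads of a transgene cannot be told apart from those of the native gene. In bulk RNA, a larger share of cells with the RNA and more RNA per cell cannot be told apart either.

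RNA counted on CRLM1 was among the most abundant in the CRLM1-OE libraries. By FPKM (fragments scaled for exon length and mapped fragments, so that genes can be compared), CRLM1 was the 40th, 40th and 42nd most abundant of 23737, 23183 and 23535 genes with a value above 0 in the CRLM1-OE libraries. This was 54.3% to 58.1% of the FPKM of GAPDH, a glycolytic enzyme, and 65.9% to 70.0% of that of ACTB, cytoplasmic actin. In Anti, the FPKM on CRLM1 was 70.9 to 78.5 and its rank 630 to 699. Taking the total counts of a library as its mapped fragments, the ratio of counts to FPKM gives a length of 618 to 629 nt (median of 6 libraries 621). The total behind the deposited FPKM is not given in the sources used here, so this length is approximate.

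**Figure D2:**
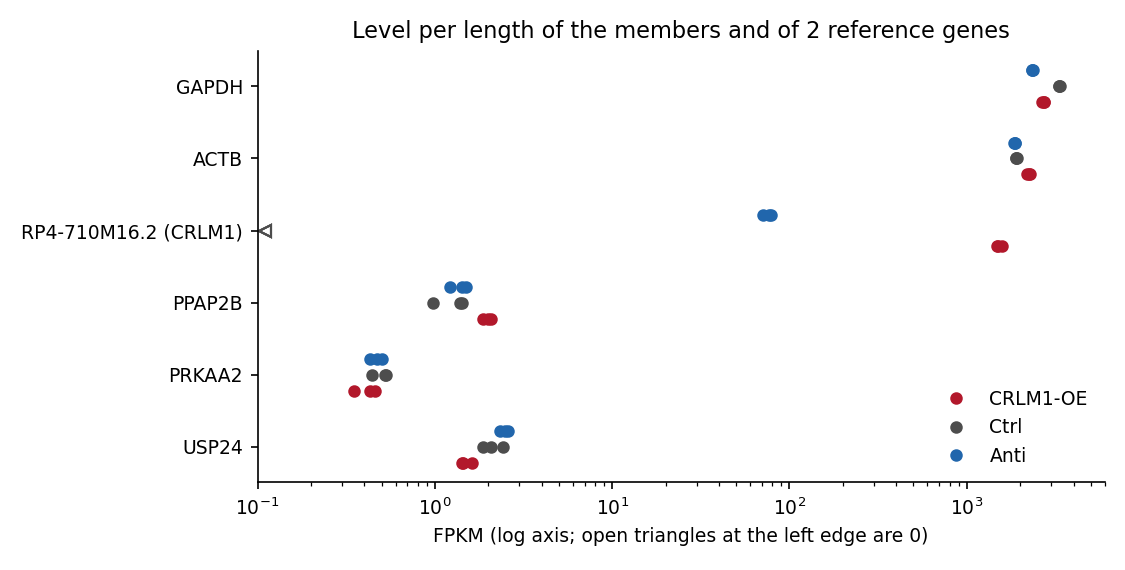
FPKM on a log axis of CRLM1, the 3 neighbours and the reference genes GAPDH and ACTB, with a point per library coloured by group and open triangles at the left edge for values of 0. CRLM1 in CRLM1-OE sits beside ACTB, and the neighbours lie between 0.35 and 2.57 FPKM.

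The neighbours were all weakly expressed, and their order depended on the group. In Ctrl the mean FPKM was 2.12 ± 0.279 for USP24, 1.26 ± 0.246 for PPAP2B and 0.497 ± 0.0493 for PRKAA2 (SD, n = 3). In Anti the order was the same, with 2.47 ± 0.117, 1.38 ± 0.142 and 0.467 ± 0.0351. In CRLM1-OE, PPAP2B at 1.97 ± 0.101 stood above USP24 at 1.497 ± 0.0987, and PRKAA2 was lowest at 0.413 ± 0.0569. Within each group the ranges of neighbours in this order did not overlap.

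**Figure D3:**
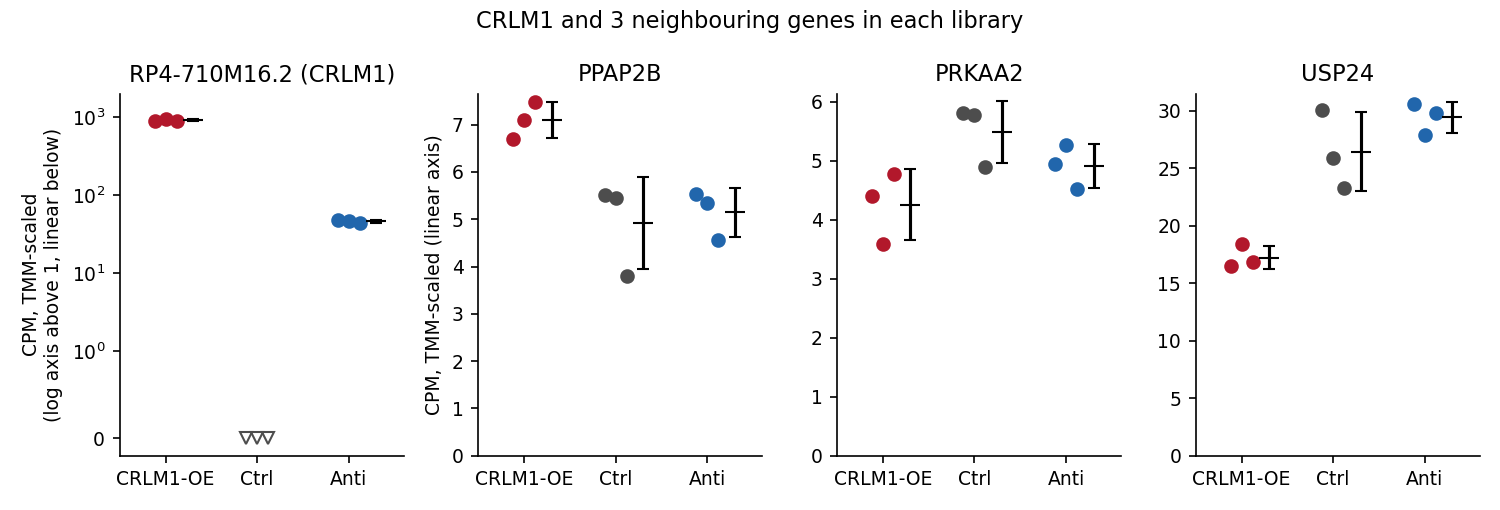
CPM after TMM scaling of CRLM1 (log axis above 1, linear below) and of PPAP2B, PRKAA2 and USP24 (linear axes from 0), with a point per library and the mean ± SD of each group beside the points. PPAP2B is higher and USP24 lower in all CRLM1-OE libraries than in all control libraries, while PRKAA2 in CRLM1-OE overlaps Anti.

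PPAP2B was higher in CRLM1-OE than in both controls. Its TMM-scaled level was 6.70, 7.10 and 7.47 CPM in CRLM1-OE, 5.51, 5.45 and 3.81 CPM in Ctrl and 5.53, 5.35 and 4.55 CPM in Anti, from 127 to 296 counts per library. Every CRLM1-OE library was above every control library, and the controls overlapped each other, with the third Ctrl library lowest. The difference was 1.43-fold against Ctrl (log2 fold change 0.52, SE 0.10, adjusted p = 4.52e-06) and 1.38-fold against Anti (0.46, SE 0.10, adjusted p = 2.92e-05). Between Anti and Ctrl the log2 fold change was 0.03 (SE 0.11, adjusted p = 0.874).

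PRKAA2, whose start lies beside the far starts of PPAP2B, had the opposite sign. Its TMM-scaled level was 4.40, 3.59 and 4.77 CPM in CRLM1-OE, 5.81, 5.77 and 4.89 CPM in Ctrl and 4.94, 5.27 and 4.52 CPM in Anti, from 126 to 246 counts. The CRLM1-OE libraries were all below the Ctrl libraries, but narrowly, with the highest CRLM1-OE library at 4.77 CPM and the lowest Ctrl library at 4.89 CPM. The CRLM1-OE libraries overlapped Anti. In FPKM the highest CRLM1-OE library (0.46) lay above the lowest Ctrl library (0.44). PRKAA2 was 1.29-fold lower than in Ctrl (log2 fold change -0.36, SE 0.11, adjusted p = 0.00568), and this call was lost without the second CRLM1-OE library (-0.27, adjusted p = 0.0911), without the first Ctrl library (-0.31, adjusted p = 0.0577), with scaling by total counts (-0.22, adjusted p = 0.138) and with limma on FPKM (adjusted p = 0.419 with a pseudocount of 0.1 and 0.325 with 1). The log2 fold change was -0.20 against Anti (SE 0.12, adjusted p = 0.198) and -0.19 between Anti and Ctrl (SE 0.11, adjusted p = 0.269), neither past the threshold.

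With edgeR's main test, USP24 had the lowest adjusted p of the 3 neighbours in both comparisons with CRLM1-OE. The size of this p and the order depended on the fit. Against Ctrl, the adjusted p of USP24 was 5.01e-09 with filterByExpr. With limma on log2(FPKM + 1) it was 0.0237, above that of PPAP2B (0.0184). The TMM-scaled level of USP24 was 16.5, 18.4 and 16.9 CPM in CRLM1-OE, 30.1, 25.9 and 23.3 CPM in Ctrl and 30.6, 27.9 and 29.8 CPM in Anti, from 645 to 1274 counts. The highest CRLM1-OE library lay below the lowest control library, and Ctrl and Anti overlapped. USP24 was 1.54-fold lower than in Ctrl (log2 fold change -0.63, SE 0.06, adjusted p = 1.07e-25) and 1.71-fold lower than in Anti (-0.77, SE 0.06, adjusted p = 2.35e-42). Between Anti and Ctrl the log2 fold change was 0.12 (SE 0.05, adjusted p = 0.0737), which passed the threshold without the first Ctrl library (0.24, adjusted p = 6.19e-04), without the second Anti library (0.16, adjusted p = 0.0348) and with scaling by total counts (0.23, adjusted p = 9.83e-05). Among the 3 Ctrl libraries, the third was lowest for all 3 neighbours and the first was highest.

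A change of this kind was common among all genes, and the counts of neighbours are read against that. Against Ctrl, 1 of the 3 neighbours was higher and 2 lower at an adjusted p of at most 0.05, where 15% and 16.8% of the 29846 genes tested were higher and lower. Among 15930 genes with a mean of at least 10 counts, as all 3 neighbours have, the shares were 26.7% and 31%. Against Anti, 1 was higher and 1 lower, beside 17.1% and 18.5% of 30183 genes, or 30.6% and 34% with at least 10 counts. Between Anti and Ctrl, 0 of the 3 passed with edgeR's test and 0 with DESeq2, and 1, USP24, had an unadjusted p under 0.05, beside 11.5% higher and 12.2% lower of 29714 genes, or 20.8% and 22.5% with at least 10 counts. None of the 3 neighbours reached a 2-fold change in the 3 comparisons, where 2.5% of all genes passed with at least a 2-fold higher and 0.915% with at least a 2-fold lower level against Ctrl, 3.09% and 2.56% against Anti, and 0.683% and 0.38% between Anti and Ctrl. These comparisons share libraries, and their values are given side by side.

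These shares moved with the scaling. Total counts in place of TMM factors raised the log2 fold changes of CRLM1-OE by a median of 0.14 against Ctrl and 0.06 against Anti. For Anti against Ctrl the median was 0.10. These medians cover genes with a mean of at least 10 counts. Against Ctrl, 6649 genes were then higher and 2951 lower, in place of 4462 and 5016, and for Anti against Ctrl 5500 were higher and 2029 lower, in place of 3406 and 3635. Under total counts PPAP2B stayed higher and USP24 lower in CRLM1-OE than in both controls past the threshold.

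Within 2 Mb of CRLM1 on either side, 26 other genes of the tables were tested, of which 16 had a mean of at least 10 counts. Against Ctrl, 6 were higher, 4 lower and 16 did not pass, where 15% of all genes tested were higher and 16.8% lower. The median log2 fold change of the 26 was 0.15, beside 0.02 over all genes tested. Against Anti, the counts were again 6, 4 and 16, with a median of 0.48 beside -0.02, and between Anti and Ctrl 4 of 24 were higher and 3 lower (median -0.07 beside 0.00). Of all genes tested, 17.1% were higher and 18.5% lower against Anti, and 11.5% and 12.2% between Anti and Ctrl. Of the 16 with at least 10 counts, 37.5% were higher and 25.0% lower in both comparisons with CRLM1-OE, and the medians were 0.15 and 0.03. Of all genes of that depth, 26.7% were higher and 31% lower against Ctrl, and 30.6% and 34% against Anti. With total counts, 9 of the 26 were higher and 3 lower against Ctrl, where 6649 of all genes were higher and 2951 lower. Within 5 Mb, 17 of 106 were higher and 19 lower against Ctrl, which is 16.04% and 17.9%.

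Of the 10 neighbours that passed against Ctrl, 8 lay on the side of USP24, as did 13 of the 16 neighbours with at least 10 counts. TTC22, a tetratricopeptide repeat gene, had 0.285 to 0.505 CPM in the CRLM1-OE libraries, 0.642 to 1.05 CPM under Ctrl and 0.988 to 1.59 CPM under Anti. It was 3.06-fold lower than in Anti (log2 fold change -1.61, SE 0.27, adjusted p = 1.75e-08). Its level in Anti was itself above Ctrl by 0.65 (adjusted p = 0.0268), a call that 7 of 14 alternatives kept. Against Ctrl, TTC22 was at -0.95 (adjusted p = 0.00768), a call lost without the second CRLM1-OE library (adjusted p = 0.0612), without the third Ctrl library (0.10), with DESeq2 (0.0557) and with limma on FPKM (-0.46 and 0.147 with a pseudocount of 0.1, -0.09 and 0.097 with 1), at a mean of 31.7 counts. Of the neighbours that passed, 1 was at least 2-fold higher and 0 at least 2-fold lower against Ctrl, and 1 was higher and 1, TTC22, lower by as much against Anti. Between Anti and Ctrl, 7 neighbours passed and 0 of them were at least 2-fold different with edgeR's test, nor was any with DESeq2. Of those at least 2-fold different, 1 had an unadjusted p under 0.05, C1orf177 (log2 fold change 1.60, adjusted p = 0.095, mean of 4.7 counts), which was named after its value was seen.

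ACOT11, an acyl-CoA thioesterase, was lower in CRLM1-OE by -0.30 against Ctrl (adjusted p = 6.80e-06, lost with limma on FPKM) and by -0.60 against Anti (adjusted p = 5.44e-23), and higher by 0.27 in Anti against Ctrl (adjusted p = 2.73e-05). TMEM61, a membrane protein gene, was higher by 0.30 against Ctrl (adjusted p = 0.00614) and by 0.55 against Anti (adjusted p = 1.15e-07). The first of these calls was lost without the third CRLM1-OE library (adjusted p = 0.0662) or the third Ctrl library (0.0528). TMEM61 in Anti was below Ctrl by -0.27 (adjusted p = 0.0444), a call that 6 of 14 alternatives kept. PARS2, the mitochondrial prolyl-tRNA synthetase, was at 0.11 against Ctrl (adjusted p = 0.449, but 0.032 with total counts) and lower by -0.36 against Anti (adjusted p = 3.34e-04). Its level in Anti was above Ctrl by 0.45 (adjusted p = 1.78e-05).

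RP11-12C17.2, antisense to TMEM61, was at 0.98 (adjusted p = 0.080) and 0.71 (adjusted p = 0.204). The first of these passed with total counts (adjusted p = 0.0366), filterByExpr (0.0379), both limma fits (0.0356 and 0.0309) and without the first Ctrl library (0.0326). Since counting by strand is not stated, its reads and those of TMEM61 cannot be told apart where they overlap. The overlapping models MROH7, MROH7-TTC4 and TTC4 divide shared reads in a way that is uncertain. MROH7-TTC4 was higher by 0.18 against Ctrl (adjusted p = 9.81e-04) and at 0.02 against Anti (adjusted p = 0.764). Anti was above Ctrl by 0.13 for MROH7-TTC4 (adjusted p = 0.0276), a call that 9 of 14 alternatives kept. MROH7 was at 0.54 against Ctrl (adjusted p = 0.0671), and it passed there with total counts (adjusted p = 0.0137), with the replicate block (0.0353), without the third CRLM1-OE library (0.0268) and without the second Ctrl library (0.0207). It was higher by 0.81 against Anti (adjusted p = 0.00324), a call lost without the second Anti library (adjusted p = 0.0541) and with limma on FPKM (0.098 and 0.0559). TTC4 and FAM151A passed in none of the 3 comparisons, nor did OMA1, a mitochondrial protease gene and the expressed gene farthest on the PRKAA2 side, whose values were 0.02, 0.05 and -0.05.

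**Figure D4:**
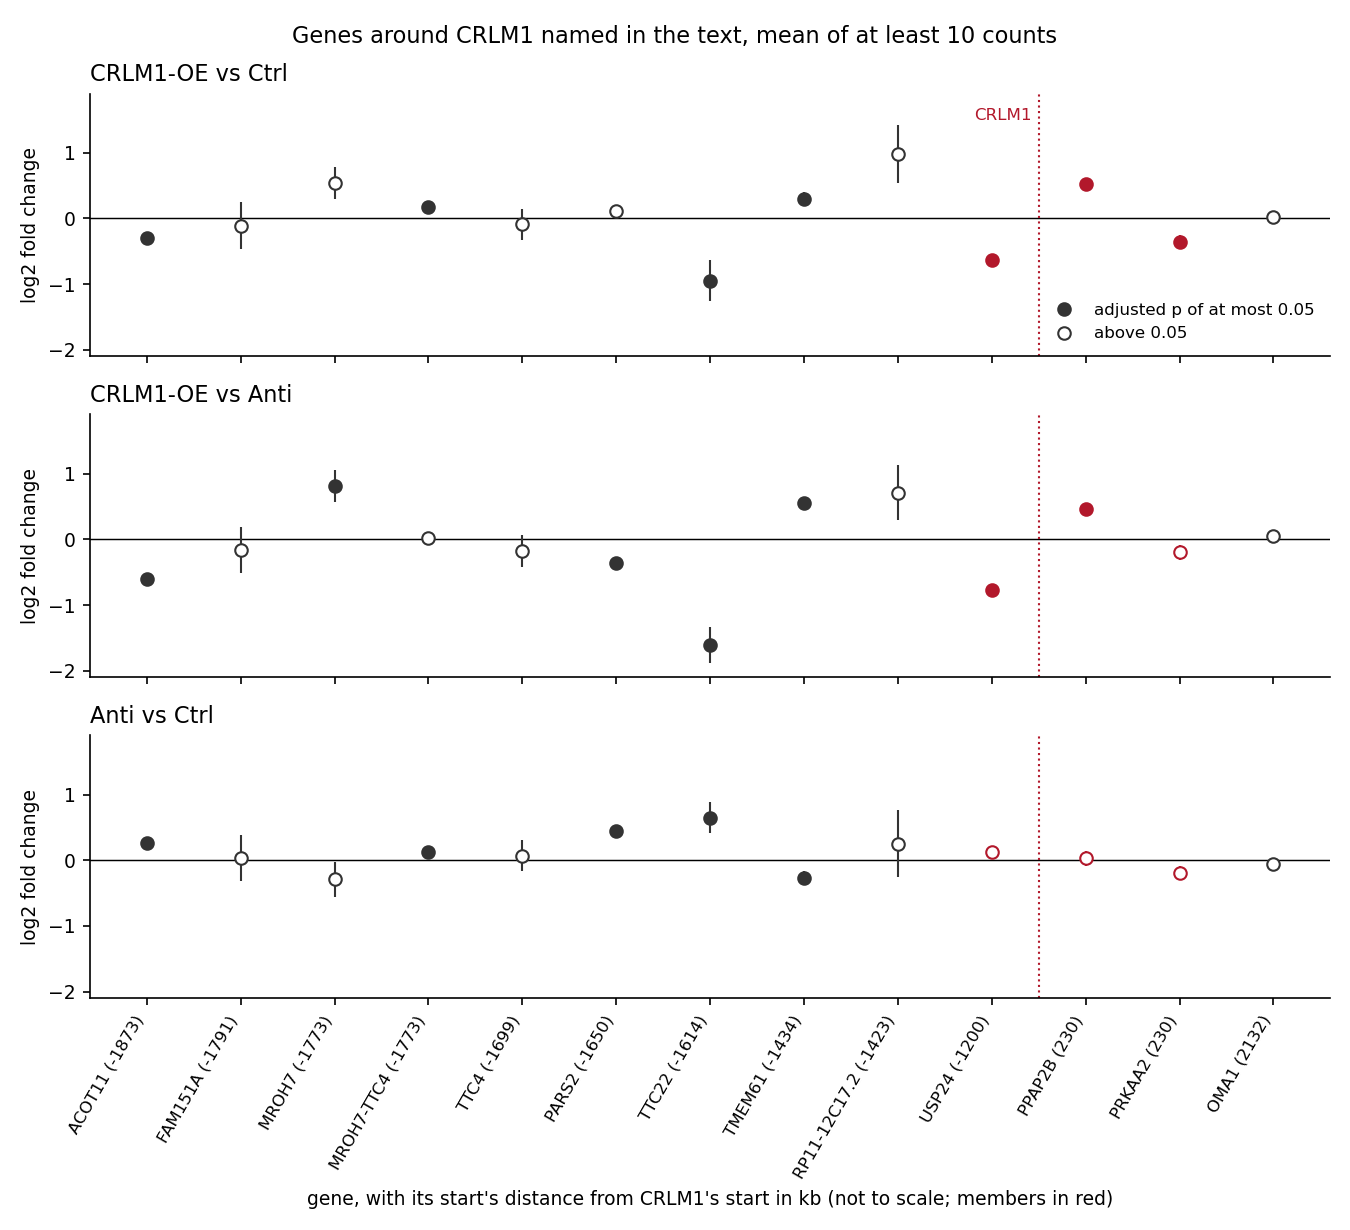
The log2 fold change of 13 of the 16 genes with a mean of at least 10 counts within 2 Mb of CRLM1, those named in the text, in the order of their starts along the chromosome (not to scale), for the 3 comparisons; bars are ± SE, filled points passed an adjusted p of 0.05, and the members are in red. TTC22 is the lowest of these genes, at -0.95 against Ctrl and -1.61 against Anti, and USP24 and PPAP2B lie on opposite sides of 0 in both.

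PPAP2B was among the less abundant lipid phosphate phosphatases of these cells. The family list held 12 genes, of which 10 were tested and 6 had a mean of at least 10 counts. By mean FPKM PPAP2B was 5th of these 6 in all 3 groups, with PPAP2C highest at 43.1 (CRLM1-OE), 52.4 (Ctrl) and 46.8 (Anti). Against Ctrl, 3 of the 10 were higher (PPAP2A, PPAP2B and PPAPDC2) and 1 lower (PPAP2C), with a median log2 fold change of -0.02. Of all genes tested, 15% were higher and 16.8% lower, or 26.7% and 31% with at least 10 counts. PPAP2A, which acts on the same lipids, was higher by 0.31 against Ctrl (adjusted p = 1.10e-05) and by 0.71 against Anti (adjusted p = 8.11e-25), and it was lower in Anti than in Ctrl by -0.43 (adjusted p = 8.42e-08). PPAP2C was lower by -0.40 (adjusted p = 3.60e-32) and -0.16 (adjusted p = 8.67e-07), and Anti was below Ctrl by -0.25 (adjusted p = 4.45e-14).

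PPAPDC2 was higher by 0.54 against Ctrl (adjusted p = 0.00783) and at -0.31 against Anti (adjusted p = 0.102), which passed without the third CRLM1-OE (0.0349) or the third Anti library (0.0498). Its call against Ctrl was lost without the third CRLM1-OE library (adjusted p = 0.097) or the second Ctrl library (0.0727), and its rise of 0.82 in Anti against Ctrl had an adjusted p of 7.06e-06. LPPR2, a membrane protein related to these phosphatases, was at -0.07 against Ctrl (adjusted p = 0.172) and higher by 0.31 against Anti (adjusted p = 5.93e-14). Its level in Anti was below Ctrl by -0.41 (adjusted p = 1.32e-21). PPAPDC1B was at 0.03, 0.02 and -0.02 in the 3 comparisons, none of which passed. PPAPDC1A, PPAPDC3, LPPR3 and LPPR4 had a mean of at most 6.4 counts and did not pass. Against Anti, 3 of the 10 were higher and 1 lower, beside 17.1% and 18.5% of all genes, and between Anti and Ctrl 1 was higher and 3 lower, beside 11.5% and 12.2%.

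Genes that make, degrade or receive LPA and S1P had 3 members higher and 3 lower of 15 tested against Ctrl (5 and 1 with total counts), 4 and 5 of 14 against Anti (4 and 2), and 3 and 2 of 15 between Anti and Ctrl (4 and 0). Over all genes tested the shares higher and lower were 15% and 16.8%, 17.1% and 18.5%, and 11.5% and 12.2% in the same order, and the list held 11 genes with at least 10 counts. Its medians were 0.05, 0.03 and -0.13. No member passed with a 2-fold change in any of the 3 comparisons, and S1PR1, S1PR3 and S1PR4, which were past 2-fold in at least 1 of them without passing, had a mean of at most 2.4 counts and were named after their values were seen.

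PRKAA2 was the least abundant of the 6 AMPK subunits with a mean of at least 10 counts, in all 3 groups. The other catalytic subunit, PRKAA1, had 4.41, 4.43 and 4.72 FPKM in CRLM1-OE, Ctrl and Anti. Its log2 fold change was -0.12 against Ctrl (adjusted p = 0.0525) and -0.14 against Anti (adjusted p = 0.0133), the latter lost with total counts (-0.08, adjusted p = 0.216) and without the second CRLM1-OE (0.0575), the third CRLM1-OE (0.0874) or the second Anti library (0.117), and also with DESeq2 (0.0534) and limma on FPKM (0.112 and 0.113). The value against Ctrl passed with filterByExpr (0.0483), in the fit of 9 samples (0.0216) and without the first CRLM1-OE library (0.0474). Of the regulatory beta subunits, PRKAB1 was lower by -0.43 against Ctrl (adjusted p = 5.46e-24) and at -0.04 against Anti (adjusted p = 0.536), and Anti was below Ctrl by -0.41 (adjusted p = 5.58e-22). PRKAB2 was at 0.02 against Ctrl (adjusted p = 0.812) and 0.09 against Anti (adjusted p = 0.0494). This last call was lost without either the first or the third library of CRLM1-OE (adjusted p = 0.218 and 0.0511) or of Anti (0.268 and 0.121), with DESeq2 (0.0651), in the fit of 9 samples (0.0717) and with the replicate block (0.0585), so that 7 of 14 alternatives kept it.

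Of the gamma subunits, which bind AMP, PRKAG2 was higher by 0.18 (adjusted p = 1.02e-04) and 0.17 (adjusted p = 1.36e-04) in the comparisons with CRLM1-OE. PRKAG1 was at -0.01 against Ctrl (adjusted p = 0.871) and higher by 0.12 against Anti (adjusted p = 5.79e-04), and under total counts it was higher against Ctrl as well (0.13, adjusted p = 2.52e-04), as with limma on FPKM (0.0316 and 0.0336). Its level in Anti was below Ctrl by -0.15 (adjusted p = 5.10e-05), a call that 11 of 14 alternatives kept. PRKAG3 had a mean of 1.0 count. In all, 1 of the 7 subunits was higher and 2 lower against Ctrl, which became 3 and 1 with total counts. The numbers were 3 and 1 against Anti, and 0 and 2 between Anti and Ctrl. Of all genes with at least 10 counts, as 6 of the 7 have, 26.7% were higher and 31% lower against Ctrl, 30.6% and 34% against Anti, and 20.8% and 22.5% between Anti and Ctrl.

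Upstream kinases and regulators of AMPK, all 11 with at least 10 counts, had 7 higher and 2 lower against Ctrl, beside 26.7% and 31% of all genes of that depth, 4 and 2 against Anti, beside 30.6% and 34%, and 5 and 1 between Anti and Ctrl, beside 20.8% and 22.5%. With total counts the numbers were 7 and 1, 5 and 2, and 5 and 0. CAMKK1, a calcium-dependent kinase that phosphorylates AMPK, was the only member of any list that passed with at least a 2-fold change, with a mean FPKM of 2.73 (CRLM1-OE), 1.13 (Ctrl) and 1.42 (Anti). Its log2 fold change was 1.16 against Ctrl (SE 0.09, adjusted p = 4.50e-39) and 0.89 against Anti (adjusted p = 4.51e-26). Between Anti and Ctrl it was 0.25 (adjusted p = 0.0489), a call that 7 of 14 alternatives kept. CAMKK2, named after its value was seen, was higher by 0.14 against Ctrl (adjusted p = 0.0114) and lower by -0.27 against Anti (adjusted p = 3.95e-09). Genes of AMPK substrates had 7 of 13 higher and 3 lower against Ctrl (median 0.44), 8 and 2 against Anti (0.26) and 4 of 12 higher and 4 lower between Anti and Ctrl (-0.06), beside the same shares. With total counts the numbers were 9 and 0 (median 0.59), 9 and 2 (0.32), and 5 and 2 (0.05). Over the 12 substrate genes with at least 10 counts, the medians with TMM factors were 0.31 against Ctrl and 0.24 against Anti. Those of all genes of that depth were -0.02 in both. These are levels of RNA, and phosphorylation by AMPK was not measured.

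USP24 was a middling member of the ubiquitin-specific proteases in the controls and ranked lower in CRLM1-OE. Among 45 members with a mean of at least 10 counts it was 28th by FPKM in Ctrl, 27th in Anti and 37th in CRLM1-OE, where the list medians were 2.81, 3.07 and 3.08 FPKM. Its log2 fold change was the second lowest of the 45 against Ctrl, after that of USP1 (-0.69, adjusted p = 3.88e-16), and the 4th lowest against Anti. USP1, which was named after its value was seen, acts on ubiquitinated DNA repair proteins. Of 48 tested, 11 were higher and 17 lower against Ctrl (median -0.05), which became 19 and 12 with total counts. With at least 10 counts, as 45 members have, 26.7% of all genes were higher and 31% lower in this comparison. Against Anti 10 were higher and 19 lower (13 and 15 with total counts), and between Anti and Ctrl 15 were higher and 7 lower (26 and 5), beside 30.6% and 34%, and 20.8% and 22.5%, of all genes of that depth. No member passed with a 2-fold change in the 3 comparisons.

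**Figure D5:**
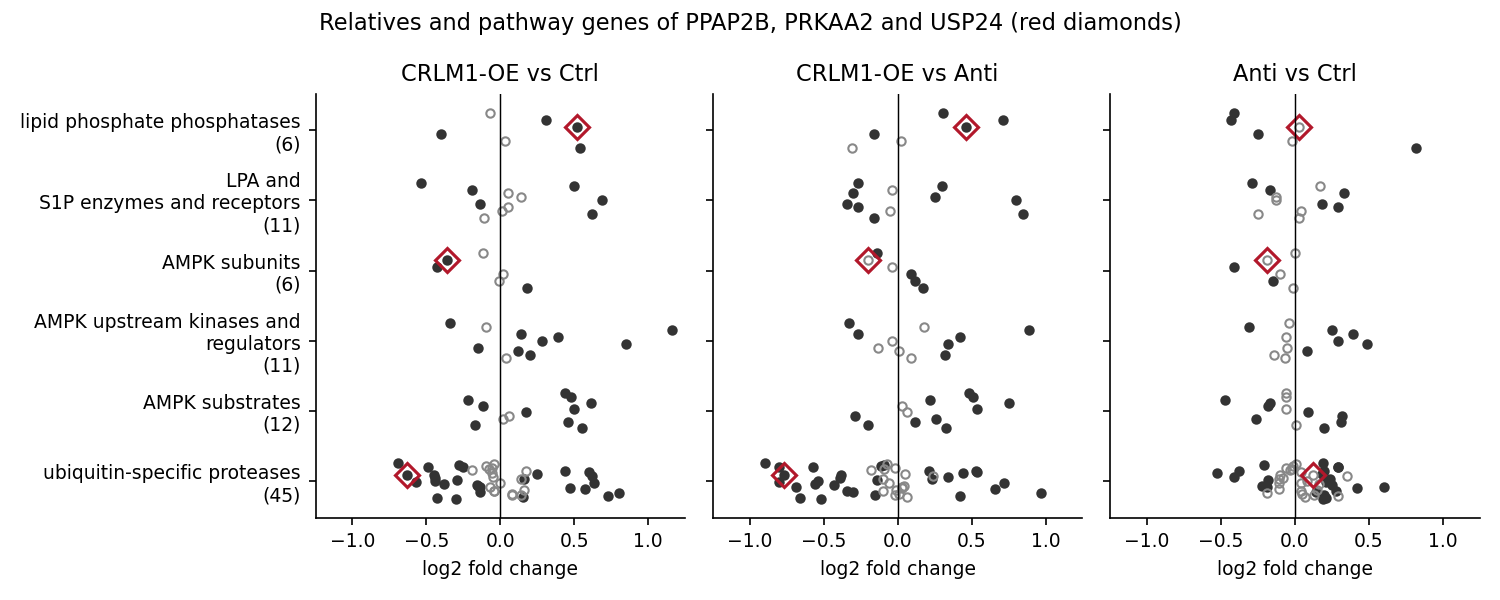
The log2 fold change in the 3 comparisons of the list members with a mean of at least 10 counts (number in brackets), with filled points for an adjusted p of at most 0.05 and red diamonds around PPAP2B, PRKAA2 and USP24. USP24 lies near the low end of its family in the comparisons with CRLM1-OE, and PPAP2B is 2nd highest of 6 in all 3 comparisons.

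Other genes followed the members over the 9 libraries. Pearson's r of log2 CPM was computed for 11702 genes averaging at least 100 counts, and since the libraries fall into 3 groups that the genes share, r is a description only. CRLM1 was closest to SREBF1 (r = 0.997), which encodes a transcription factor of lipid synthesis and had 128.5, 88.7 and 116.4 CPM in CRLM1-OE, Ctrl and Anti, and to PRRC2A (0.996) and the splicing factor gene CWC25 (0.995). PPAP2B was closest to SRPX (0.972), the centrin gene CETN3 (0.963) and CTB-89H12.4 (0.953). PRKAA2 was closest to LRRC16A (0.959), a regulator of actin capping, PRRG4 (0.946) and AC068533.7 (0.942). USP24 was closest to NUCB2 (0.988), which encodes a calcium-binding protein, ZBTB1 (0.988), a zinc finger gene, and CUL1 (0.987), the scaffold of a ubiquitin ligase, which had 22.7, 33.1 and 35.4 CPM in CRLM1-OE, Ctrl and Anti. None of the 12 genes lies on chromosome 1.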

How the data were processed

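PolyA RNA of 9 HCT116 samples, 3 per group by their labels, was sequenced by the authors. Per the labels and the methods, they aligned reads with TopHat2 to GRCh38 with Gencode annotation and deposited, per gene, raw counts of reads with a unique position and FPKM values. Strand and pair counting are not given in the sources used here.

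The test was the quasi-likelihood F test of edgeR 4.0.16 (glmQLFit, glmQLFTest, R 4.3.3) with TMM factors and SE as the log2 fold change over the root of F, on the 6 samples of each comparison, for every gene with at least 1 count and with Benjamini-Hochberg adjustment over all of them. Genes passed at an adjusted p of at most 0.05, and those called also changed at least 2-fold. The procedure was tested on simulated data. Neighbours, promoters and transcripts came from GENCODE and RefSeq. Members and lists were chosen with earlier results of these data known. Named were the 4 members, genes within 2 Mb with a mean of at least 10 counts or past the threshold, called list members, all AMPK subunits and lipid phosphate phosphatases, and the 3 genes most like each member. Some items covered by this rule are not reported here. Alternatives were RLE factors, total counts, filterByExpr, DESeq2 1.42.0, limma 3.58.1 on log2(FPKM + 0.1) and log2(FPKM + 1), a fit of 9 samples, the replicate block, leaving out each replicate, a 5 Mb window and another floor.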

Additional observations from a re-analysis of the deposited data

How the results depend on the processing

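The differences of PPAP2B and USP24 between CRLM1-OE and both controls, and of CRLM1 between CRLM1-OE and Anti, kept their direction and stayed past the threshold under all 14 alternatives, at 0.39 to 0.66 for PPAP2B and -0.69 to -0.32 for USP24 against Ctrl. PRKAA2 against Ctrl fell short of the threshold at -0.22 with total counts, at -0.22 and -0.08 with limma on log2(FPKM + 0.1) and log2(FPKM + 1), and spanned -0.45 to -0.27 over the left-out replicates. USP24 between Anti and Ctrl passed at 0.23 with total counts and ranged from 0.05 to 0.24 over the left-out replicates. PPAP2B between Anti and Ctrl changed sign without Anti replicate 1 (-0.03) and without Ctrl replicate 3 (-0.10), within a range of -0.10 to 0.13 and never past the threshold.

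The share of neighbours within 2 Mb that passed was 38.5%, 38.5% and 29.2% in CRLM1-OE against Ctrl, CRLM1-OE against Anti and Anti against Ctrl. Of all genes tested, 31.8%, 35.6% and 23.7% passed. With filterByExpr, where fewer genes are tested, the neighbours' share was 68.8%, 62.5% and 46.7%, and that of all genes is not given here. It was 62.5% in both comparisons with CRLM1-OE for neighbours with a mean of at least 10 counts, an alternative chosen after seeing the data. Of all genes of that depth, 26.7% were higher and 31% lower against Ctrl, and 30.6% and 34% against Anti. For Anti against Ctrl the neighbours' share was 19.0% within 5 Mb and 16.7% to 26.1% as replicates were left out, with 16.7% without Anti replicate 3 or Ctrl replicate 2. The lower bound of the fold of CRLM1 over Ctrl was 36654 for CRLM1-OE and 1799 for Anti with 3 counts over the summed Ctrl libraries, and 10871 to 11492 for CRLM1-OE as replicates were left out. Total numbers of genes passing stayed within 1.5 times.

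The labels number replicates 1 to 3 in each group. The correlations of deviations from the group means were -0.0749 to 0.0782 for the 9 pairs of equal number and -0.109 to 0.144 for the 18 others, so the numbers were not taken as pairing. With the replicate block PPAP2B was at 0.52, PRKAA2 at -0.37 (adjusted p = 0.00284) and USP24 at -0.62 against Ctrl. All 16 results compared were rated the same. Those on members kept their direction and their side of the threshold. The share of neighbours passing and the number of genes passing stayed within 1.5 times. Against Ctrl that share was 42.3% with the block, in place of 38.5%. Among the other genes the block changed the calls of MROH7 against Ctrl and of PRKAB2 against Anti, given above, and it lost those of SPHK2 (adjusted p = 0.0502) and TBC1D4 (0.0609) against Anti and of STK11 (0.059) between Anti and Ctrl, all 3 named after their values were seen. Of the 3 neighbours PRKAA2 had the lowest mean count (185.8, at 126 to 246 per library), with PPAP2B close at 219.0. What part depth has in the lost calls of PRKAA2 was not tested.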
